A study of Mus musculus with 4 samples.

Results

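The cytosolic ribosomal protein genes encode the proteins of the ribosomes that translate nuclear messenger RNAs. They were taken as the rows of the deposited gene table whose symbol starts with Rpl or Rps followed by a number, or is Rplp0, Rplp1, Rplp2 or Rpsa, leaving out names with -ps and the Rps6k kinases. A normalized count of at least 50 was required in all 4 libraries. A matching name was held by 89 of 48178 rows, and 81 met the level, 48 of the large (60S) subunit and 33 of the small (40S) subunit. The members were thus chosen by their level in every library, so levels are given as a description, and only differences between the groups are tested.

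FGF13Aoe neurospheres carried hGFAPCre and ROSA26FGF13A LSL/+, that is, a FGF13A cassette behind a stop that Cre removes on 1 ROSA26 allele. Control neurospheres, from littermates, carried hGFAPCre and ROSA26FGF13A +/+. By these labels Cre was common to both groups and the cassette was not, though they do not account for the RNA of Prm1, given with the label checks. The human GFAP promoter that drives Cre is active in neural progenitors and in astrocytes. Each group had 2 libraries, from hippocampal cells of C57BL/6 pups at postnatal day 0, labelled as neural progenitor cells. Cells of a pup were divided over 2 wells in medium holding EGF and FGF-2, both at 20 ng/ml, and the floating spheres were collected on culture day 7. Neurospheres hold progenitors together with the neurons and glia they give rise to. The labels do not tell whether the libraries of a group come from different pups, so every p-value reflects the spread between these libraries, which may be technical. Reads on the genes of the table, worked out from the normalized counts, came to 9724413 and 11389767 in FGF13Aoe replicates 1 and 2. In control replicates 1 and 2 they came to 11481591 and 14092685. The total of control replicate 1 is less certain, for a reason given with the processing.

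A ribosome joins a small subunit, which reads the messenger RNA, to a large subunit, which forms the peptide bond. Each standard ribosomal protein is present in a single copy in most ribosomes, apart from the acidic stalk proteins. Their genes are among the most strongly transcribed in dividing and growing cells, and in the brain progenitors are known for high ribosome production. Most of their messenger RNAs begin with a cytosine followed by a run of pyrimidines, the terminal oligopyrimidine (TOP) motif. Through that motif the kinase complex mTORC1 and the RNA-binding protein LARP1 set their translation and their stability. Counts of RNA, as used here, do not measure translation.

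Most ribosomal protein genes had more RNA in FGF13Aoe neurospheres than in control neurospheres, by a small factor. The log2 change was positive in 75 of the 81 members and negative in 6, with a median of 0.36, a 1.28-fold difference. Its middle range ran over 0.22 to 0.47, whereas the median over all 15204 genes tested was -0.01. By limma, with Benjamini-Hochberg adjustment over all genes tested and a threshold of 0.05, 19 members rose, 1 member fell and 61 did not pass. Values after ± are standard errors of that fit, with n = 2 libraries per group. Rps27 had the largest rise, and Rps27l, a paralogue of Rps27, was the member that fell.

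The count of called members has to be read against a table in which many genes differed. Of all genes tested 16.2% were called higher and 19.1% lower. Among the 11036 tested genes with at least 50 in all 4 libraries, the level the members also meet, 17.6% were called higher and 18.0% lower, against 23.5% and 1.23% of the members. The members departed more from that background in the order of their libraries than in the number of calls. Both FGF13Aoe libraries lay above both control libraries in 65 members, which is 80.2%, against 36.2% of all genes tested and 37.3% of those with at least 50. Both lay below in 5 members, against 37.5% of all genes tested and 37.0% of those with at least 50, and the groups overlapped in 11 members. By the adjusted p of the authors' deposited table, with the same threshold, 25 members were higher and 1 was lower, and the 20 limma calls were among them in the same direction.

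The difference was larger in FGF13Aoe replicate 1 than in replicate 2. With each member's control mean as its zero, the median over members of log2(count + 1) was 0.49 and 0.24 in FGF13Aoe replicates 1 and 2, and -0.04 and 0.04 in control replicates 1 and 2. FGF13Aoe replicate 1 exceeded replicate 2 in 76 of 81 members, and control replicate 1 exceeded replicate 2 in 8. The members therefore moved together between libraries of the same group as well as between groups, and their calls are not separate observations. Leaving out FGF13Aoe replicate 2 brought the members called higher to 57, and leaving out control replicate 1 or 2 brought them to 0 by limma, with 4 and 11 members at an unadjusted p under 0.05 in either direction. By edgeR on the reads of 3 libraries, without control replicate 1, 0 members were called and 3 had an unadjusted p under 0.05.

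**Figure D1:**
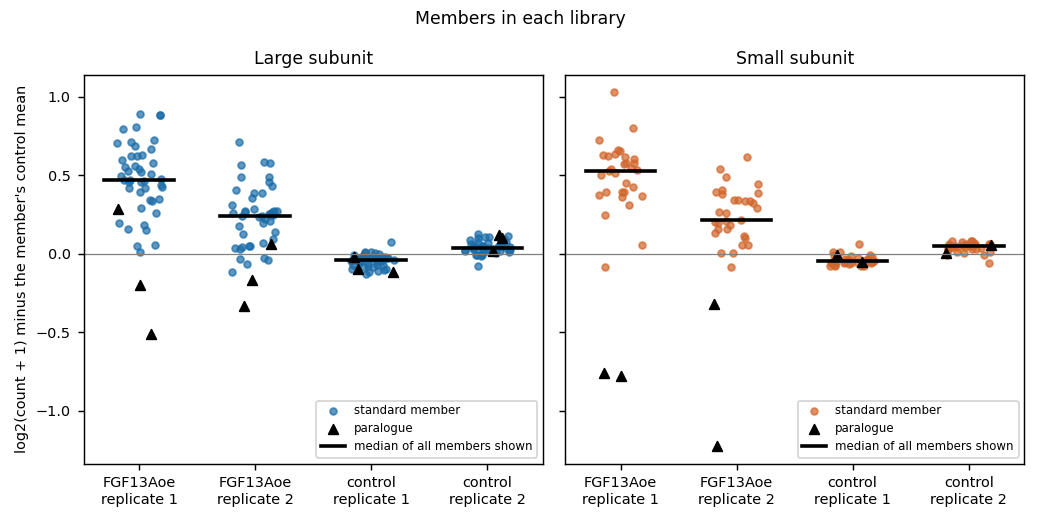
The y axis gives log2(normalized count + 1) of each member minus its control mean, for the 4 libraries on the x axis. Circles are standard members, triangles are the 5 paralogues and lines are medians over the members of a subunit, and both subunits are highest in FGF13Aoe replicate 1 (0.47 for the large and 0.53 for the small subunit), then in FGF13Aoe replicate 2 (0.24 and 0.21).

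In both subunits most members had a positive log2 change, 45 of 48 in the large and 30 of 33 in the small subunit. In the large subunit 10 of 48 members rose (20.8%) and 0 fell, with a median log2 change of 0.35 and a middle range of 0.19 to 0.45. In the small subunit 9 of 33 members rose (27.3%) and 1 fell (3.03%), with a median of 0.38 and a middle range of 0.24 to 0.48. Of tested genes with at least 50 in all 4 libraries, 17.6% were called higher, near the share of the large subunit, and 18.0% lower. Both FGF13Aoe libraries were above both control libraries in 37 large subunit members (77.1%) and in 28 small subunit members (84.8%). The share was 37.3% over tested genes with at least 50 in all 4 libraries. Members of either subunit thus spread over a wider range than the distance between the subunit medians. The summed counts of the large subunit over those of the small subunit gave a ratio of 1.35 and 1.34 in FGF13Aoe libraries, against 1.33 and 1.32 in control libraries, so the groups did not overlap but differed by little. No test was made of the difference between subunits.

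Ribosomal protein messengers took a larger share of the libraries in FGF13Aoe. The 81 members held 3.86% and 3.36% of the summed normalized counts in FGF13Aoe libraries, against 2.78% and 2.92% in control libraries. The large subunit held 2.22% and 1.93% in FGF13Aoe libraries, against 1.58% and 1.67% in control libraries. The small subunit held 1.64% and 1.43% in FGF13Aoe libraries, against 1.19% and 1.26% in control libraries. All 3 shares were highest in FGF13Aoe replicate 1 and separated the groups. With 2 libraries a group an exact permutation test of a share has 6 arrangements and cannot reach a two-sided p under 0.333.

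**Figure D2:**
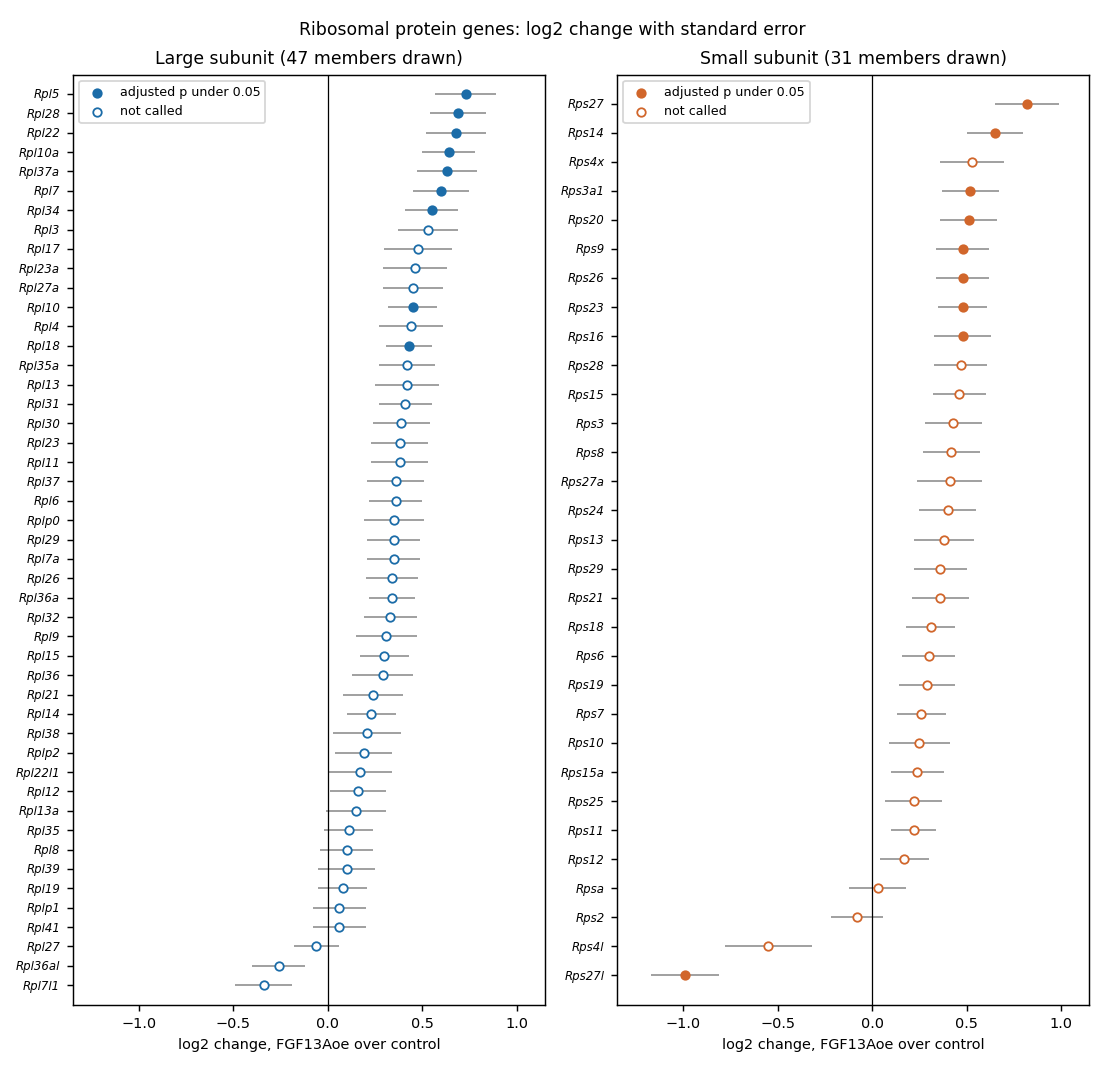
The x axis gives the log2 change of each member, FGF13Aoe over control, with a bar of 1 standard error, and the rows are the members of the large subunit on the left and of the small subunit on the right. Of the 81 members 78 are drawn, and the filled points, with an adjusted p under 0.05, all lie to the right of 0 (17 members) apart from Rps27l at -0.99.

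Several large subunit members rose by well over the median of the subunit. Rpl28, which has no counterpart in yeast ribosomes, had 5082 and 4379 normalized counts in FGF13Aoe libraries, against 2679 and 3193 in control libraries. The higher control library remained below the lower FGF13Aoe library, and the log2 change was 0.69 ± 0.15 (limma adjusted p = 0.0194). Rpl22, an RNA-binding protein that is dispensable for general translation, had 5146 and 3908 counts in FGF13Aoe libraries, against 2755 and 2825 in control libraries. Its FGF13Aoe libraries differed by more than its control libraries, and the log2 change was 0.68 ± 0.16 (limma adjusted p = 0.0251).

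Rpl5 and Rpl11 form, with 5S ribosomal RNA, the particle that also binds the p53 regulator MDM2 when ribosome assembly fails. Rpl5 (chromosome 5, 107900502 to 107909005) had 9166 and 7419 counts in FGF13Aoe libraries, against 4742 and 5216 in control libraries. It rose, with a log2 change of 0.73 ± 0.16 (limma adjusted p = 0.0199), though 24.3% of its exon bases lie opposite another gene. Rpl11 had 6372 and 5206 counts in FGF13Aoe libraries, against 4402 and 4433 in control libraries. The partner of Rpl5 also had groups that did not overlap, but its log2 change of 0.38 ± 0.15 did not pass (limma adjusted p = 0.0935).

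The stalk, built on Rplp0 and carrying Rplp1 and Rplp2, recruits the elongation factors. None of its 3 genes was called. Rplp0, the base of the stalk, had 15035 and 13387 counts in FGF13Aoe libraries, against 10832 and 11389 in control libraries (log2 change 0.35 ± 0.16). Rplp2 had 4158 and 3357 counts in FGF13Aoe libraries, against 3276 and 3253 in control libraries (0.19 ± 0.15). Rplp1 had 7217 and 6326 counts in FGF13Aoe libraries, against 6533 and 6438 in control libraries (0.06 ± 0.14). The groups were separate for Rplp0 and Rplp2 and overlapped for Rplp1, which had the highest level of all members per kilobase of exon, 13284 normalized counts per kilobase averaged over the 4 libraries. Rplp0 and Rpl36 followed in the large subunit with 7632 and 5907 normalized counts per kilobase. Exon bases join the exons of all annotated transcripts of a gene, so this order depends on the annotation. Rpl36, a small basic protein of the subunit, had 2845 and 2157 counts in FGF13Aoe libraries, against 1975 and 2071 in control libraries, a log2 change of 0.29 ± 0.16 that did not pass.

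Genes for proteins at the catalytic centre and the exit tunnel are given next, chosen for that role after their values were seen. Rpl10, which completes the subunit near the peptidyl transferase centre, rose with 6468 and 5894 counts in FGF13Aoe libraries, against 4381 and 4632 in control libraries (log2 change 0.45 ± 0.13). Rpl3 and Rpl8, which reach the same centre, had log2 changes of 0.53 ± 0.16 and 0.10 ± 0.14 and did not pass (limma adjusted p = 0.0512 and 0.588). Rpl4, which lines the exit tunnel, had a log2 change of 0.44 ± 0.17 and did not pass, as did Rpl17 with 0.48 ± 0.18. Rpl39, a small protein inside the tunnel, had 2872 and 2294 counts in FGF13Aoe libraries, against 2527 and 2274 in control libraries, so the groups overlapped. Rpl23a and Rpl35, docking sites for the signal recognition particle at the tunnel mouth, had log2 changes of 0.46 ± 0.17 and 0.11 ± 0.13, and neither passed. Rpl23a and Rpl35 share 59.7% and 66.2% of their exon bases with a gene on the opposite strand, and no source used here gives the strand setting of the counting. Rises were also called in the large subunit members Rpl10a, Rpl37a, Rpl7, Rpl34 and Rpl18, with log2 changes between 0.43 and 0.64. Rpl7, a protein bound beside the 5S particle, had 11362 and 9639.9 counts in FGF13Aoe libraries, against 6749 and 7026 in control libraries (0.60 ± 0.15; limma adjusted p = 0.0300).

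The other 4 of these rises were of like size. Rpl10a had 5124 and 4628 counts in FGF13Aoe libraries, against 2910.4 and 3375 in control libraries (log2 change 0.64 ± 0.14; limma adjusted p = 0.0192). Rpl37a, a zinc-binding protein, had 4524 and 3549 counts in FGF13Aoe libraries, against 2479 and 2693 in control libraries (0.63 ± 0.16; limma adjusted p = 0.0276). Rpl34 had 3627 and 2989.9 counts in FGF13Aoe libraries, against 2176 and 2336 in control libraries (0.55 ± 0.14; limma adjusted p = 0.0311). In each the lower FGF13Aoe library was above the higher control library. Rpl18 had 4744 and 4482 counts in FGF13Aoe libraries, against 3316 and 3554 in control libraries (0.43 ± 0.12; limma adjusted p = 0.0421), the smallest rise among the called members. Rpl3, with 12399 and 10802 counts in FGF13Aoe libraries, against 7476 and 8577 in control libraries, had a larger log2 change than Rpl18 and also a larger standard error, and was not called.

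In the small subunit Rps27, a zinc finger protein, had the largest rise of all members. Rps27 (ENSMUSG00000090733, chromosome 3, 90212522 to 90213651, GRCm38) had 4568 and 3430.2 counts in FGF13Aoe libraries, against 2253 and 2227 in control libraries. The control libraries nearly coincided while FGF13Aoe replicate 1 exceeded replicate 2, and the log2 change was 0.82 ± 0.17 (limma adjusted p = 0.0150). Rps14, a protein near the exit of the messenger channel, rose with a log2 change of 0.65 ± 0.15 (limma adjusted p = 0.0247). Rps26, which contacts the messenger upstream of the start codon, and Rps23, a protein of the decoding centre, both rose with a log2 change of 0.48. Rps9, Rps16 and Rps20 rose with log2 changes of 0.48, 0.48 and 0.51. Rps14 had 7102 and 5724 counts in FGF13Aoe libraries, against 3962 and 4184 in control libraries. Rps26 had 4632 and 3796 counts in FGF13Aoe libraries, against 2924 and 3072 in control libraries. In both genes FGF13Aoe replicate 1 was the highest library and control replicate 1 the lowest. Rps23 had 5207 and 4590.2 counts in FGF13Aoe libraries, against 3409.7 and 3611 in control libraries (limma adjusted p = 0.0367). Rps9, which helps to hold the accuracy of decoding, had 9335 and 8889 counts in FGF13Aoe libraries, against 6339.9 and 6746 in control libraries, and its FGF13Aoe libraries differed little.

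The small subunit members with the highest counts per kilobase of exon had log2 changes above the subunit median, and 1 of 3 passed. Rps15, Rps3a1 and Rps4x led the subunit per kilobase of exon, with 8522, 7261 and 6160.2 normalized counts per kilobase averaged over the 4 libraries. Their order can change with the length used, since Rps27, for example, has 1043 exon bases but a transcript of 345 bases. Rps15, a protein of the subunit's head, had 6737 and 5707 counts in FGF13Aoe libraries, against 4354 and 4679 in control libraries (log2 change 0.46 ± 0.14; limma adjusted p = 0.0547). Rps3a1 had 9042 and 7696 counts in FGF13Aoe libraries, against 5578 and 6059.9 in control libraries, and rose (0.52 ± 0.15; limma adjusted p = 0.0433). Rps4x, encoded on the X chromosome, had 12967 and 10791 counts in FGF13Aoe libraries, against 7877 and 8554 in control libraries (0.53 ± 0.17; limma adjusted p = 0.0544). In each of the 3 the groups were apart, and their log2 changes differed from each other by less than their standard errors.

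Rps6, the classic substrate of the S6 kinases downstream of mTORC1, had 4822 and 4237 counts in FGF13Aoe libraries, against 3474 and 3872 in control libraries. The groups did not overlap, and its log2 change of 0.30 ± 0.14 did not pass. Rps27a, made as a fusion of ubiquitin and a ribosomal protein, had 5809 and 4355 counts in FGF13Aoe libraries, against 3698 and 3872 in control libraries, with a log2 change of 0.41 ± 0.17 that did not pass. Rpsa, also known as the laminin receptor precursor, had 12375 and 11937 counts in FGF13Aoe libraries, against 11501 and 12363 in control libraries. Its groups overlapped and its log2 change was 0.03 ± 0.15. Among the 11 members whose groups overlapped were Rpl38, Rpl22l1, Rpl12, Rpl35, Rpl39, Rpl19, Rplp1, Rpl41, Rpsa and Rpl27, with log2 changes between -0.06 and 0.21. Of these Rpl38, a large subunit protein known for its role in the patterning of the axial skeleton of the mouse, had 2230.4 and 1574 counts in FGF13Aoe libraries, against 1603 and 1629 in control libraries, so that the FGF13Aoe libraries lay on either side of the control libraries. Rps2, which lies at the entry of the messenger, was among the 6 members with a negative log2 change (-0.08 ± 0.14), as was Rpl27 in the large subunit (-0.06 ± 0.12), and neither passed.

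The other 4 members with a negative log2 change were paralogues, copies related to a standard gene. Rps27l (ENSMUSG00000036781, chromosome 9, 66946086 to 66949516, GRCm38), a known p53 target in human cells, had 716 and 518 counts in FGF13Aoe libraries, against 1205 and 1217 in control libraries. It fell, with a log2 change of -0.99 ± 0.18 (limma adjusted p = 0.0108). This call was lost without control replicate 1 or 2, at a limma adjusted p of 0.0743 and 0.0703. Rps4l, annotated as a transcribed processed pseudogene, had 100.3 and 138 counts in FGF13Aoe libraries, against 166 and 179 in control libraries (-0.55 ± 0.23). Rpl7l1 had 774 and 981 counts in FGF13Aoe libraries, against 1088 and 1117 in control libraries (-0.34 ± 0.15). The X-linked Rpl36a had 2420.1 and 2171 counts in FGF13Aoe libraries, against 1827 and 1793 in control libraries, and its log2 change of 0.34 ± 0.12 did not pass. Rpl36al, an autosomal copy of it, had 556 and 506 counts in FGF13Aoe libraries, against 595 and 682 in control libraries (-0.26 ± 0.14). In each of these 4 paralogues both FGF13Aoe libraries lay below both control libraries, and only Rps27l passed. The 4 were grouped by their negative log2 change, so that order of libraries adds little. It held in 5699 of the 7674 genes tested that had a negative log2 change. Rpl22l1 had 360.1 and 309.7 counts in FGF13Aoe libraries, against 273 and 321 in control libraries, and its groups overlapped.

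In all 5 pairs the ratio of the standard gene to its paralogue was higher in both FGF13Aoe libraries than in both control libraries. Such separation is common with 2 libraries a group. Among single genes tested, 36.2% had both FGF13Aoe libraries above both control libraries and 37.5% had both below. Rps27 over Rps27l, as a ratio of normalized counts, was 6.38 and 6.62 in FGF13Aoe libraries, against 1.87 and 1.83 in control libraries. The replicates of a group nearly agreed in this ratio, although each of the 2 genes differed between FGF13Aoe replicates. Rpl7 over Rpl7l1 was 14.7 and 9.83 in FGF13Aoe libraries, against 6.2 and 6.29 in control libraries. Rpl22 over Rpl22l1 was 14.3 and 12.6 in FGF13Aoe libraries, against 10.1 and 8.81 in control libraries. Rpl36a over Rpl36al was 4.35 and 4.29 in FGF13Aoe libraries, against 3.07 and 2.63 in control libraries, and in the last pair Rps4x over Rps4l was 129 and 78.4 in FGF13Aoe libraries, against 47.3 and 47.8 in control libraries. These ratios were not tested, and the pairs were chosen with the members' values known. Reads shared between copies could blur them. The Rps27 and Rps27l transcripts were 79.3% identical over 251 aligned bases with no shared run longer than 11 bases, whereas Rps4x and Rps4l shared a run of 38 bases.

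**Figure D3:**
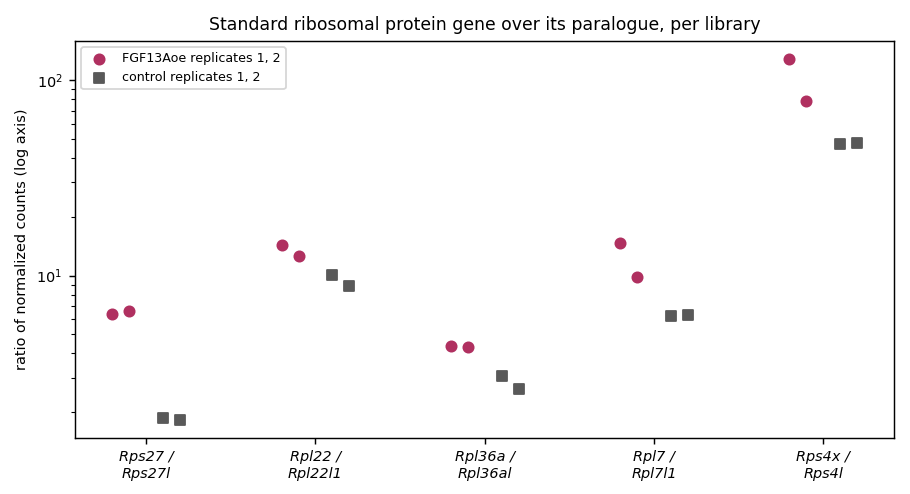
The y axis, on a log scale, gives the normalized count of a standard gene over that of its paralogue in each library, for 5 pairs along the x axis. Circles are FGF13Aoe libraries and squares are control libraries, and for Rps27 over Rps27l the circles lie at 6.38 and 6.62 and the squares at 1.87 and 1.83.

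Without the 5 paralogues, chosen with their values known, the members left were more uniform. Of the 5, 4 were among the 6 members with a negative log2 change, so a narrower spread follows from leaving them out. Of the 76 other members 74 had a positive log2 change, with a median of 0.37 and a SD over members of 0.19, against 0.28 over all 81. Across the 81 members the log2 change correlated with the log2 mean count (Pearson r = 0.49), and across the 76 it did so weakly (r = 0.15). These are descriptions across genes of the same 4 libraries, which share depth and scaling. The members lie on 19 chromosomes, with at most 14 on a single chromosome. The 4 X-linked members, Rpl10, Rpl36a, Rpl39 and Rps4x, had a median log2 change of 0.40, and 1 of them, Rpl10, rose.

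The 8 rows with a matching name below the level of 50 were copies of standard genes, apart from Rpl24. The members nearest above it were Rps4l, described above, and Rpl13a, with 283 and 326 counts in FGF13Aoe libraries, against 269 and 278 in control libraries. The rows nearest below it were processed pseudogenes, Rps3a2 with 53.2 and 41.5 counts in FGF13Aoe libraries, against 58.4 and 26.8 in control libraries, and Rpl6l with 26.6 and 29.4 in FGF13Aoe libraries, against 33.7 and 17.1 in control libraries. Rpl3l, Rpl39l, Rps3a3, Rpl10l and Rps12l1 were lower still or listed at 0. Rpl24, a standard large subunit gene, had 2.42 and 7.09 counts in FGF13Aoe libraries, against 7.92 and 8.14 in control libraries, and 47.0% of its exon bases are shared on the same strand with the gene Gm28037. Rpl13a shares 35.4% of its exon bases in the same way. Reads that fall on 2 genes can be lost from the counts, so the values of Rpl24 and Rpl13a are uncertain. The 53 members with at most 5% of their exon bases in another gene had a median log2 change of 0.36, and the other 28 had 0.34.

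Some ribosomal proteins have gene names of another form. Fau, whose product holds the small subunit protein eS30 fused to a ubiquitin-like protein, had 3926 and 3256 counts in FGF13Aoe libraries, against 2272 and 2425 in control libraries, and rose (log2 change 0.61 ± 0.14; limma adjusted p = 0.0224). Rack1, a scaffold on the head of the small subunit, had 10619 and 9375 counts in FGF13Aoe libraries, against 6785 and 7532 in control libraries, and did not pass (0.48 ± 0.15; limma adjusted p = 0.0559). Both had groups that did not overlap. Rows named as ribosomal protein pseudogenes, 275 in all with 109 at 0 in every library, held 0.0199% and 0.0159% of the counts in FGF13Aoe libraries, against 0.0182% and 0.0124% in control libraries.

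Promoter sequences are shown for 6 members because most members moved in the same direction and some of their promoters hold start site features described for this gene family. They comprise 100 bases before and 20 bases from the annotated start of transcription onwards, 5′ to 3′, from RefSeq on GRCm38.p6. Rps27 and Rps27l are the members with the largest rise and the fall, Rpl28 and Rpl5 rose, and Rplp2 and Rps6 did not pass. Capitals mark the ETS motif CCGGAAG on either strand, the motif TCTCGCGA on either strand, and runs of at least 5 pyrimidines that reach within 10 bases of the annotated start.
Rps27 (chr3:90213629-90213748, minus strand): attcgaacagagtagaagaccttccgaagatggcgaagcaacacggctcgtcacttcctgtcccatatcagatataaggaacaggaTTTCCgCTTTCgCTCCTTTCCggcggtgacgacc
Rps27l (chr9:66945986-66946105, plus strand): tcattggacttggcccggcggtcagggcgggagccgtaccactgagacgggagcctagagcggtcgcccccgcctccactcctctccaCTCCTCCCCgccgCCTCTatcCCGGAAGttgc
Rpl28 (chr7:4792865-4792984, plus strand): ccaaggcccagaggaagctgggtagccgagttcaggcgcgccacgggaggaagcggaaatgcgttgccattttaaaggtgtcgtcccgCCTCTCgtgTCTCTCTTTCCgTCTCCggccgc
Rpl5 (chr5:107900428-107900547, plus strand): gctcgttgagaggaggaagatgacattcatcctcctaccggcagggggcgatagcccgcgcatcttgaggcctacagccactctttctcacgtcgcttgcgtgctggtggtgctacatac
Rplp2 (chr7:141447551-141447670, plus strand): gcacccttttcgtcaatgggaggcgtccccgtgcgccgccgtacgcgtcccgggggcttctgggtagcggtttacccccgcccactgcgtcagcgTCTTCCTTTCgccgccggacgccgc
Rps6 (chr4:86857348-86857467, minus strand): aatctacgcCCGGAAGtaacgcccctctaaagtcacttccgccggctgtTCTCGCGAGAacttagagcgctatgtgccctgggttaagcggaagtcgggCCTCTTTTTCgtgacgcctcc
In Rps27, Rpl28, Rplp2 and Rps6 the capitals near the end of the line are a pyrimidine run of the kind that begins TOP messengers. Rps27l also has such runs, with an ETS motif after them, at the start shown. None of the 3 features was found at the other of its 2 annotated starts. In Rpl5 none of the 3 features was found by these limits, though a pyrimidine run in its line ends just short of the limit of 10 bases. Among the starts shown, a pyrimidine run was thus present in members that rose, in the member that fell and in members that did not pass.

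RefSeq promoters, each with 250 bases before and 50 after the start, were matched for 60 of the 81 members, with 71 windows in all. A start at a cytosine followed by at least 4 pyrimidines was found in 18.3% of member windows, against 2.4% of 14305 windows of tested genes. Allowing that start anywhere within 10 bases of the annotated start gave 53.5% of member windows, against 31.7% of windows of tested genes. The ETS motif CCGGAAG, searched on both strands, was in 36.6% of member windows, against 15.9% of windows of tested genes and 8.86% of all 32851 windows. The motif TCTCGCGA, also on both strands, was in 16.9% of member windows, against 1.89% of windows of tested genes. The GC box GGGCGG and the TATA box TATAAA, searched in the same way, were about as frequent in member windows (63.4% and 9.86%) as in windows of tested genes (61.5% and 7.07%). Members with the ETS motif had a median log2 change of 0.30 and members without it 0.42. Members with a TOP start within 10 bases of the annotated start had 0.30 and members without it 0.38. These differences were not tested.

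Other genes of translation were called in both directions. Their shares can be read against the 16.2% called higher and 19.1% called lower over all genes tested. No list was tested as a set, and no difference between lists was tested. Of 14 genes of elongation and termination tested, 1 rose (7.14%) and 6 fell (42.9%), with a median log2 change of -0.33. Their summed counts, most of them from Eef1a1 and Eef2, were nonetheless higher, with 178372 and 161793 in FGF13Aoe libraries, against 126268 and 139838 in control libraries. Eef2k, the kinase that inhibits elongation factor 2, rose with 1736 and 1769 counts in FGF13Aoe libraries, against 836 and 765 in control libraries. Eef1a2, the elongation factor of mature neurons and muscle, fell with 116 and 65.8 counts in FGF13Aoe libraries, against 897 and 1016 in control libraries (log2 change -3.43). Eif5a, which relieves stalled peptide bond formation, and Eef1e1, a factor of the multisynthetase complex, fell with log2 changes of -1.16 and -1.18. Eef1a1, Eef2, Eef1b2 and Tpt1 had log2 changes of 0.44, 0.50, 0.30 and 0.52, and none of them passed. In each, named after the values were seen, both FGF13Aoe libraries lay above both control libraries. Not all elongation factor genes of the list followed. Eef1g had a log2 change of -0.17, with both FGF13Aoe libraries below both control libraries. Eef1d had 0.08, with groups that overlapped.

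Of 39 initiation factor genes tested, 5 rose (12.8%) and 7 fell (17.9%), shares near those over all genes tested, with a median log2 change of -0.12. Eif4b, a helicase cofactor, rose with 10581 and 8483 counts in FGF13Aoe libraries, against 3822 and 4235 in control libraries (log2 change 1.24 ± 0.16; limma adjusted p = 0.00487). Eif3f, Eif3e, Eif3h and Eif3k, subunits of the scaffold eIF3, rose with log2 changes of 0.91, 0.59, 0.49 and 0.49. Eif4e, which binds the cap, fell with 802 and 709.5 counts in FGF13Aoe libraries, against 1758 and 1722 in control libraries (-1.20 ± 0.12; limma adjusted p = 0.00244). Eif4g1 and Eif4a1, its partners in the cap complex, fell with -0.82 and -0.65, as did Eif2s1 (-0.99), Eif3b (-0.67), Eif1ax (-0.64) and Eif4g3 (-0.46). Members of the eIF3 complex were thus called in both directions.

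**Figure D4:**
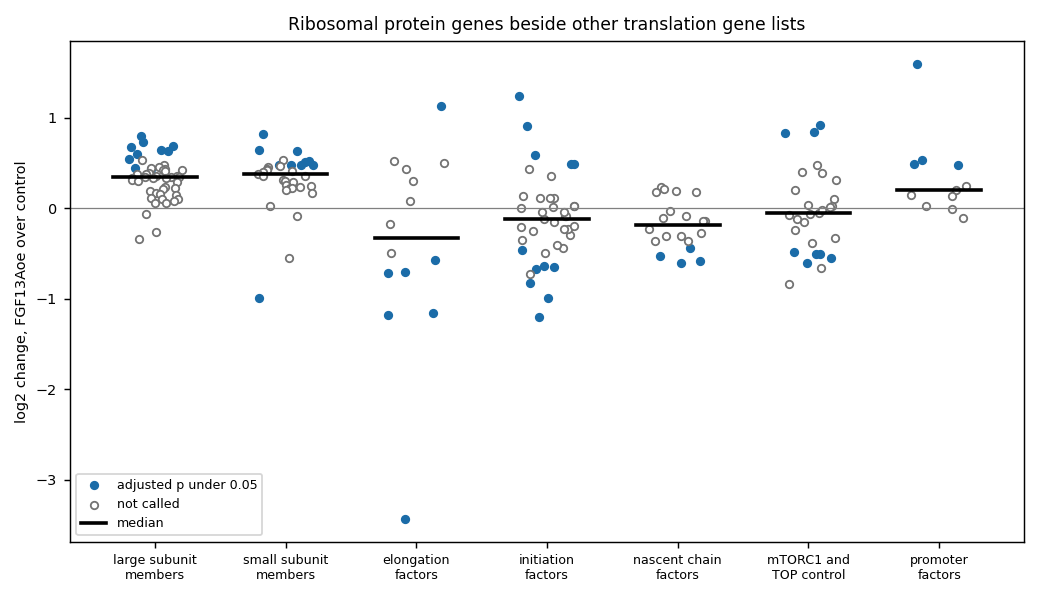
The y axis gives the log2 change of each gene, FGF13Aoe over control, for ribosomal protein members and 5 other gene lists along the x axis. Filled points have an adjusted p under 0.05 and lines are medians, which are 0.35 and 0.38 for the large and small subunit, -0.33 for elongation, -0.12 for initiation, -0.18 for nascent chain factors, -0.06 for mTORC1 and TOP control and 0.20 for promoter factors.

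Of 28 genes of mTORC1 signalling and TOP messenger control tested, 3 rose (10.7%) and 5 fell (17.9%), with a median log2 change of -0.06; the share that fell was near that over all genes tested. Larp1, the TOP-binding repressor and stabiliser, fell with 1638 and 1409 counts in FGF13Aoe libraries, against 2319 and 2295 in control libraries (log2 change -0.60 ± 0.13; limma adjusted p = 0.0168). Tia1 and Tial1, RNA-binding proteins that bind TOP messengers in starved cells, rose with 0.84 and 0.92. Rptor, the substrate-binding subunit of mTORC1, fell (-0.50), as did Larp4 (-0.50) and the Rag GTPases Rraga and Rragb (-0.48 and -0.55). Mtor itself had a log2 change of -0.12 and did not pass. Of 10 S6 kinase family genes tested 1 rose (10%) and 3 fell (30%), the rise being Rps6kb2, which the mTORC1 list also holds.

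Of 20 genes of nascent chain handling and ribosome association tested, 0 rose and 4 fell, with a median log2 change of -0.18. Those that fell, Serbp1, Nacad, Dnajc2 and Hspa14, were 20% of the list, near the 19.1% over all genes tested. Serbp1, which binds idle ribosomes, had 2714 and 2581 counts in FGF13Aoe libraries, against 3844 and 4082 in control libraries. Of 11 transcription factors reported at ribosomal protein promoters 4 rose (36.4%) and 0 fell, with a median of 0.20. Over all genes tested 16.2% rose. Mycl, a MYC family member, had 1051 and 1346 counts in FGF13Aoe libraries, against 447 and 346 in control libraries. Gabpa, an ETS factor, had 907 and 941 counts in FGF13Aoe libraries, against 634 and 650 in control libraries. Max and Sp1 were the other 2 that rose, and Myc had a log2 change of 0.14 and did not pass. Of the 11 log2 changes 9 were positive and 2 negative, in Gabpb1 (-0.11) and Yy1 (-0.01), which did not pass.

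RNA of cell type markers differed between the groups along with the ribosomal protein genes. The summed counts of 5 neuron markers were 1509 and 1375 in FGF13Aoe libraries, against 16726 and 12308 in control libraries, and all 5 fell. The summed counts of 5 astrocyte markers were 159675 and 178860 in FGF13Aoe libraries, against 59285 and 41437 in control libraries, and 3 of them rose (Gfap, Aqp4 and Gja1). Of 7 oligodendrocyte lineage markers 4 rose and 0 fell, with sums of 46910 and 52699 in FGF13Aoe libraries, against 22446 and 27507 in control libraries. The list went both ways, since Olig1 and Olig2, transcription factors of the lineage, had log2 changes of -0.87 and -0.35 with both FGF13Aoe libraries below both control libraries, and did not pass. Of 5 markers of dividing cells 3 fell, with sums of 4557 and 6666 in FGF13Aoe libraries, against 9122 and 12095 in control libraries. Of 5 progenitor markers, which check the labelled cell type, all were detected, Prom1 and Sox2 rose and Nes fell, with sums of 55953 and 69828 in FGF13Aoe libraries, against 69189 and 75198 in control libraries.

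Markers of cells outside the neural lineage were low. Of 6 microglia markers 4 were tested and 2 fell, with sums of 43.5 and 51.6 in FGF13Aoe libraries, against 234 and 124 in control libraries. Of 5 mural and fibroblast markers 3 fell, with sums of 282 and 214 in FGF13Aoe libraries, against 727 and 575 in control libraries. Of 5 endothelial markers 3 were tested and 0 called by limma, with sums of 245 and 129 in FGF13Aoe libraries, against 163 and 159 in control libraries. The haemoglobin genes Hba-a1, Hbb-bs and Hbb-bt were at 0 in all libraries. Mitochondrially encoded rows, 37 in all, held 1.83% and 2.65% of counts in FGF13Aoe libraries, against 3.19% and 3.23% in control libraries, and the lowest share was in FGF13Aoe replicate 1, where the ribosomal protein share was highest. The part of these cell types, and of the mitochondrial share, in the ribosomal protein result was not tested. In bulk RNA a shift in the proportion of cell types and a change of RNA per cell cannot be told apart.

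The labels were checked on the targeted gene. Fgf13 had 5411 and 4447 counts in FGF13Aoe libraries, against 772 and 769 in control libraries, a log2 change of 2.67. Prm1, a gene of sperm chromatin whose fragments serve as polyadenylation signals in some transgenes, had 9.67 and 10.1 counts in FGF13Aoe libraries, against 1040.1 and 722 in control libraries. The labels do not account for Prm1, so an unlabelled difference in transgene between the groups cannot be told apart from the cassette.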

How the data were processed

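RNA of 2 FGF13Aoe and 2 control neurosphere libraries was extracted with Trizol and made into NEBNext Ultra libraries, per the labels' protocols. STAR, DESeq2 and the build mm10 are named in the submitters' processing notes. No source used here gives their versions, the annotation release or the strand setting. The authors deposited a signal per gene and library, which is the read count divided by the size factor of the library. Whole multiples of a library's step, within 1e-06, made up 100% of its values, which gave the read totals. The authors' deposited table also holds their log2 fold change, its standard error, a Wald score, a p-value and an adjusted p-value.

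Genes with at least 10 in at least 2 of 4 libraries (15204) were tested with limma 3.58.1 in R 4.3.3, FGF13Aoe against control, with an intensity trend on log2(count + 1). A log2 change on this scale understates the change of low genes. Tests were two-sided, with Benjamini-Hochberg adjustment over all genes tested. The procedure was tried on simulated data, with planted changes larger than that of any member. Each gene was drawn separately, with a spread estimated from these libraries. The simulation therefore cannot speak to changes of the members' size or to members that move together. EdgeR 4.0.16 was run on reads of 3 libraries only, an alternative added after the data were seen. The step of control replicate 1, 0.991, was taken as too near 1 for its reads to be accepted as recovered. That of FGF13Aoe replicate 2, 1.012, is only slightly further from 1 and was accepted. Control replicate 2 thus stood alone in its group in the edgeR fit. A chi-square of counts between replicates gave 18.75 per degree of freedom in FGF13Aoe and 7.311 in control, above sampling noise. The control value uses the less certain reads of control replicate 1.

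The members and the gene lists were chosen with earlier results of these data known. Members named with values per library were the 3 with the highest mean per kilobase in each subunit, the 5 largest rises and falls, members called lower, paralogue pairs, the stalk genes, Rpl5, Rpl11, Rps6, Rps27a and Rpsa, with 2 rows on either side of the level of 50. Some genes that this rule takes are not reported here, but they are included in all counts, medians and shares. From each list up to 4 members with the smallest p were to be named; other genes named from the lists or among the members complete a count or were chosen after their values were seen. Positions, exon bases and overlaps came from GENCODE M21 on GRCm38, the assembly named mm10, and may differ from the authors' annotation. Alternatives were other pseudocounts, filters and scalings, no intensity trend, the authors' p-values, the replicate number as a block, and each library left out in turn. Figures were drawn with matplotlib 3.10.9.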

Additional observations from a re-analysis of the deposited data

How the results depend on the processing

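The median log2 change of the members was 0.36 with every pseudocount, filter and variance model tried, and 0.33 to 0.43 over the scalings, while the median of all tested genes stayed within -0.04 and 0.06. Counts of calls were less stable. Members called higher, 19 by limma, numbered 30 with median centring, 2 without an intensity trend, and 0 to 57 when each library was left out in turn. Members called lower, 1 by limma, numbered 0 to 3 when each library was left out. Over all tested genes 2467 were called higher and 551 to 2822 when each library was left out, and 2906 were called lower and 867 to 3447 when each was left out. When a library was left out, the lone sample of its group was assumed to vary like the other group. By edgeR on 3 libraries 0 members were called higher and 0 lower, with 537 genes higher and 1086 lower in all. The median over members was 0.24 to 0.49 with each library left out, that of the large subunit 0.24 to 0.47 and that of the small subunit 0.21 to 0.53, lowest without FGF13Aoe replicate 1 and highest without FGF13Aoe replicate 2. With each library left out, the log2 change of Rpl39 was -0.06 to 0.26 and that of Rplp1 -0.04 to 0.15, both lowest without FGF13Aoe replicate 1. That of Rpsa was -0.02 to 0.08, lowest without control replicate 1, and -0.01 by edgeR, and none of the 3 was called. With the replicate block 9 members were called higher. The labels do not say that a number marks a shared litter or day, and deviations of same-numbered libraries correlated at r = -0.103 over 15204 genes. With the numbers crossed, an alternative chosen after the data were seen, 27 members were called higher and 1 lower. The cause of these changes was not tested. Precision is limited by the 2 libraries a group.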
